A study of Mus musculus with 12 samples.

Results

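The 10 genes described here encode calmodulin-dependent protein kinases of the mouse prefrontal cortex. They are the subunits of CaMKII (Camk2a, Camk2b, Camk2d and Camk2g), CaMKI kinases (Camk1, Camk1d and Camk1g, without Pnck), CaMKIV (Camk4), and the upstream kinases of CaMKI and CaMKIV (Camkk1 and Camkk2). They were taken by gene name from 40508 gene names in 3 tables, 1 for each interval (2 h, 24 h or 7 d) between the final daily injection and killing. The mice were male C57BL/6 animals (C57BL/6 J in the study's methods), 10 weeks of age, that received cocaine or, as the chronic control, saline into the peritoneum on the same schedule. The 6 groups gave 12 libraries of polyA RNA, 2 per group, with 5 mice pooled in each, and the dissected tissue held the orbital and prelimbic areas and the frontal association area. The tables hold 1 pooled FPKM per group (fragments mapped to a transcript, scaled by its length and by the total mapped) and no value per library. The spread between libraries cannot be computed from these values, and the authors' own test columns were not used, so that every ratio below describes these pools without a test. The tables do not give the depth behind each value.

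Calcium that enters an active neuron binds calmodulin, and the complex switches these kinases on. CaMKII forms large rings of subunits that phosphorylate one another and so stay active after calcium has fallen, and it is among the most abundant proteins of the postsynaptic density of forebrain excitatory synapses. CaMKI and CaMKIV act in a cascade: they are phosphorylated by the CaMKK enzymes, and CaMKIV, which is found in the nucleus, phosphorylates the transcription factor CREB.

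All 10 genes were well above the minimum mean of 1 FPKM that was set for a locus to be kept, at all 3 time points. Loci kept were 13683 at 2 h, 14124 at 24 h and 13787 at 7 d. Camk2a, the alpha subunit of CaMKII that marks forebrain excitatory neurons, stood far above the others. Its saline levels were 895, 1048 and 844 FPKM in the 2 h, 24 h and 7 d tables, and its cocaine levels were 1000, 968 and 999 FPKM. At 2 h it lay at the 99.4th percentile of all loci kept. Camk2b, the beta subunit that binds actin filaments, came next with a median of 136 FPKM over the 6 groups (116 to 142). The groups of Camk2a and of Camk2b overlapped each other nowhere on this scale.

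Below the alpha and beta subunits, Camkk2 had a median level of 63.6 FPKM over the 6 groups (57.9 to 66.3) and Camk2g, the gamma subunit of CaMKII, 60.2 (56.7 to 61.5). The ranges of this pair overlapped. Camk1 followed with a median of 49.2 FPKM (46.7 to 56.3), Camkk1 with 36.5 (33.3 to 39.9) and Camk4 with 26.6 (25.2 to 29.0). The ranges of these genes did not overlap those of their neighbours in the order. The lowest levels were those of Camk1d (median 21.6 FPKM, 20.03 to 22.0), Camk2d, the delta subunit (21.2, 20.1 to 24.6), and Camk1g (11.4, 9.39 to 20.8), and their ranges overlapped. The 3 tables were normalized separately, so ranges over time points also hold differences between tables.

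In the 2 h table (GRCm38) Camk2b lay at chr11:5969644-6066362, Camk2d at chr3:126596302-126846312, Camk2g at chr14:20734872-20794105 and Camk1d at chr2:5293457-5715431. Camkk1 lay at chr11:73019008-73042073 and Camkk2 at chr5:122731165-122779446, and Camk2a and Camk4 both lie on chromosome 18. Other RefSeq genes overlap the loci of Camk2a, Camk2d, Camk4 and Camk1d, all of them noncoding or pseudogenes, and reads in such overlaps cannot be told apart because the library kit does not mark strand. Camk1 overlaps a protein-coding gene, and for the remaining 5 genes RefSeq gives no overlapping gene.

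**Figure D1:**
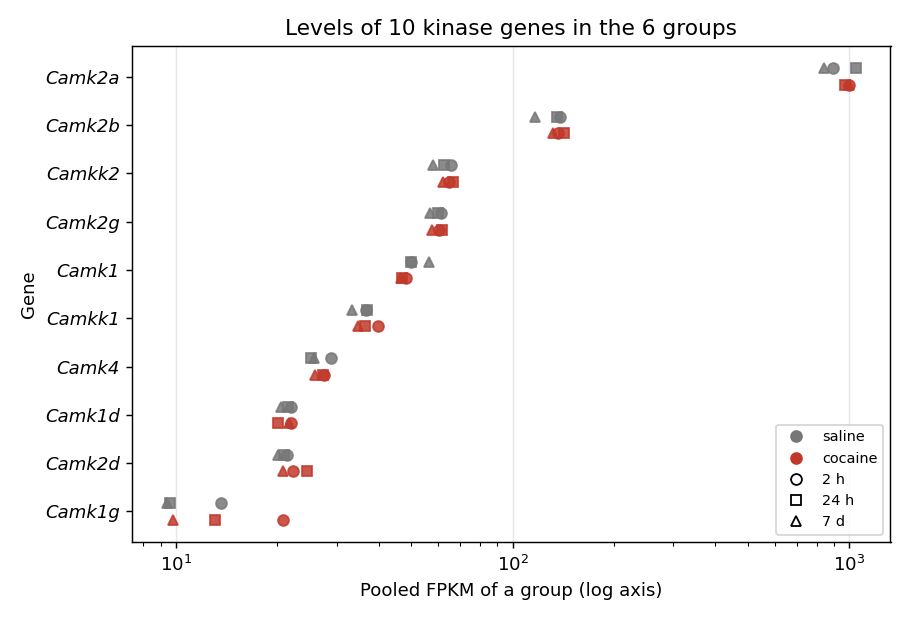
Pooled FPKM of each of the 10 kinase genes on a log axis, 1 symbol per group, with saline in grey and cocaine in red and the time after the last injection given by the symbol's shape. Camk2a sits between 844 and 1048 FPKM in all 6 groups, and Camk1g spreads most, from 9.39 to 20.8.

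Within the CaMKII family the makeup was alike in all 6 groups. Camk2a accounted for 80.2% of the summed FPKM of the 4 subunits in the saline group and 82.0% in the cocaine group at 2 h. The shares were 82.9% and 80.9% in the 24 h table and 81.4% and 82.6% in the 7 d table. The ratio of Camk2a to Camk2b was 6.46 (saline) and 7.31 (cocaine) in the 2 h table, 7.74 and 6.80 in the 24 h table, and 7.25 and 7.60 in the 7 d table. Cocaine thus had the higher ratio in the 2 h and 7 d tables and the lower in the 24 h table, and the 3 saline values alone spanned 6.46 to 7.74. Among the CaMKI kinases taken here the makeup was less even. Camk1g made up 15.9% (saline) and 22.8% (cocaine) of the summed FPKM of Camk1, Camk1d and Camk1g in the 2 h table. Its shares were 11.8% and 16.3% in the 24 h table, and 10.9% and 12.5% in the 7 d table. Pnck, the beta form of CaMKI, is followed below among the related kinases and is not in this sum. It had 26.5 FPKM (saline) and 24.1 FPKM (cocaine) in the 2 h table. For the upstream kinases, Camkk2 exceeded Camkk1 by a ratio of 1.62 to 1.83 over the 6 groups.

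The study asked how the transcriptome after repeated cocaine differs from that of saline mice killed at the same time. To place the kinases, a limit of 1.2-fold in either direction (0.263 on the log2 scale) was applied to the ratio of cocaine to saline within a table. At 2 h 1 of the 10 genes, Camk1g, was higher in cocaine past this limit, against 10.9% of all loci kept, and none was lower, against 7.89%. At 24 h Camk1g was again the 1 gene past the limit on the higher side, against 6.55% of loci, with none on the lower side, against 5.84%. At 7 d none was higher past the limit, against 8.83% of loci, and 1 gene, Camk1, was lower, against 12.3%. The counts of members past the limit therefore lay near those of all loci. In the order of the time points, 4, 6 and 9 of the 10 genes had a log2 ratio above 0, against 56.1%, 53.1% and 47.6% of loci. With the trend by transcript length described below subtracted, Camk1d, Camk4 and Camk2g were below 0 at 7 d. In the order of the time points, the median log2 ratio of the 10 genes was -0.0098, 0.05 and 0.06, beside 0.02, 0.01 and -0.01 over all loci kept.

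**Figure D2:**
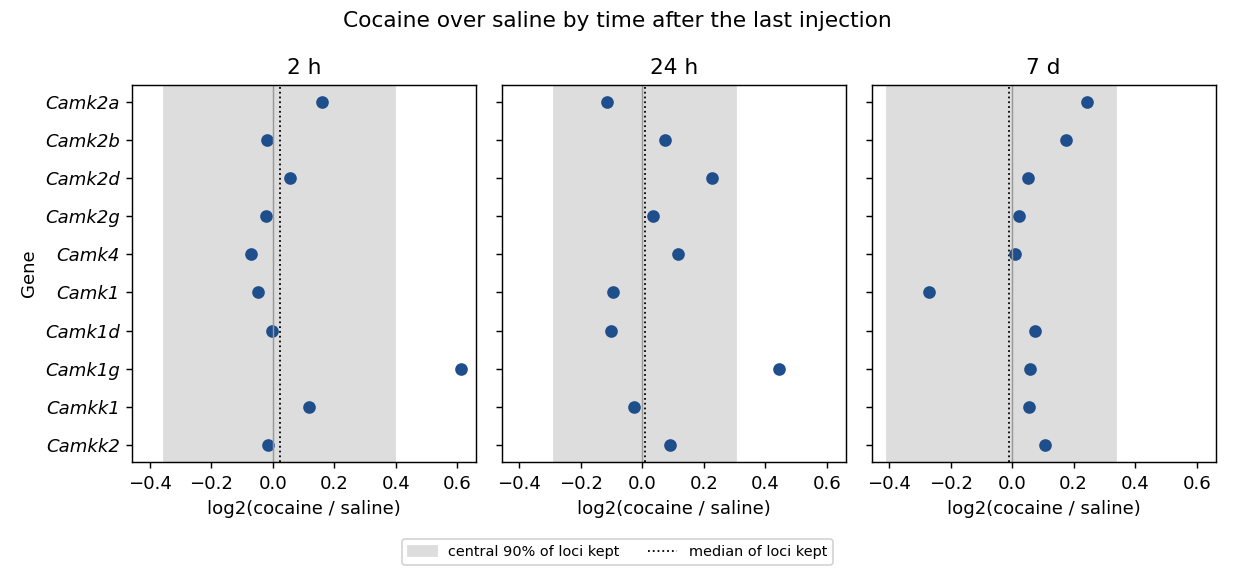
Log2 ratio of pooled FPKM, cocaine over saline, for each kinase gene at 2 h, 24 h and 7 d; the grey band spans the central part of all loci kept, from the 5th to the 95th percentile, and the dotted line is their median. Camk1g lies outside the band at 2 h and 24 h (0.61 and 0.44), and all other points lie inside it.

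Camk1g encodes a membrane-anchored CaMKI of neurons, also known as CLICK-III, which takes part in the growth of dendrites. Its locus lies on chromosome 1 (chr1:193346346-193370297 of GRCm38), where no other RefSeq gene overlapped it. Its 2 h levels were 13.6 FPKM (saline) and 20.8 FPKM (cocaine), which is 1.53-fold (log2 ratio 0.61), and 3.68% of all loci kept had a larger ratio in either direction. Its 24 h levels were 9.58 and 13.0 FPKM, 1.36-fold (log2 ratio 0.44), with 4.64% of loci beyond it. By 7 d the levels were 9.39 and 9.77 FPKM (log2 ratio 0.06), and 75.6% of loci had a larger ratio. Cocaine was the higher group at all 3 time points, and the size of the ratio was smallest at 7 d. Whether the ratio differed between time points could not be tested without values per library.

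The saline level of Camk1g was itself not level across the tables. It was higher at 2 h than at 24 h and 7 d by 0.51 and 0.54 on the log2 scale, whereas the median size of such a saline-to-saline difference over 12760 genes kept at all time points was 0.11 and 0.14. The highest saline value, 13.6 FPKM at 2 h, exceeded the cocaine value at 24 h. Time of killing and table cannot be told apart in this comparison.

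Some markers of other cells passed the limit at 2 h beside the Camk1g result. All 3 red blood cell genes of the marker list (Hba-a1, Hbb-bs and Alas2) were higher in cocaine past 1.2-fold, and their summed level was 189 FPKM for saline against 289 FPKM for cocaine. Of the choroid plexus markers 1 of 3 was kept, Ttr, which was lower at 1.90 and 0.461 FPKM. Those not kept were higher in cocaine, Kl at 0.406 and 0.511 FPKM and Folr1 at 0.328 and 0.343. Of the 4 striatal markers 2 were kept, and 1 of these was higher, Adora2a (1.02 and 1.35 FPKM). Drd2, not kept, had 0.211 FPKM in saline and 0.146 in cocaine. Of the neuronal lists, 0 of 3 excitatory and 0 of 3 inhibitory markers passed the limit at 2 h. Among glial and endothelial lists, 0 of 3 astrocyte, 0 of 3 oligodendrocyte, 0 of 3 microglia and 0 of 2 endothelial markers passed it. None of the markers found in the tables was at 0 at 2 h, and the part of these cells in the Camk1g ratio was not tested. At 24 h, where Camk1g was also past the limit, none of the 3 red blood cell genes passed it, with summed levels of 253 and 277 FPKM. Also at 24 h, 2 of 3 astrocyte markers, 1 of 3 oligodendrocyte markers and the choroid plexus gene Ttr were lower in cocaine past the limit, with values given below beside Camk2d, and their part in the Camk1g ratio was not tested. In bulk tissue fewer cells of a type and less RNA per cell cannot be told apart.

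Camk1 encodes CaMKI alpha, the founding CaMKI, a cytoplasmic kinase activated by CaMKK. Its levels were 49.99 FPKM (saline) and 48.4 FPKM (cocaine) in the 2 h table (log2 ratio -0.05), and 50.02 and 46.8 FPKM in the 24 h table (-0.10). In the 7 d table saline stood at 56.3 FPKM and cocaine at 46.7, a difference of -17.1% (log2 ratio -0.27) whose size was exceeded by 20.04% of loci. The 3 cocaine values, 46.7 to 48.4 FPKM, were all below the 3 saline values, 49.99 to 56.3. Camk1 was the only gene of the 10 whose groups did not overlap over the tables, and of 12760 genes 7.91% had no overlap in either direction and 4.52% had all 3 cocaine values below the saline values. The 7 d ratio lay close to the limit, and with ratios centred on the median of all loci it was -0.26 and no longer past it. The saline level at 7 d was 0.17 above both other saline levels on the log2 scale, and the cocaine levels ranged over 0.05.

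RefSeq places Camk1 at chr6:113334124-113343922 and the DNA repair gene Ogg1 at chr6:113326972-113334877 of GRCm38, so that the ends of this pair overlap. The tables give both genes the same locus, chr6:113326972-113343984. Reads in the overlap cannot be assigned to either gene by strand. The level of Ogg1 was far below that of Camk1, namely 3.51 FPKM (saline) and 3.002 FPKM (cocaine) in the 7 d table (log2 ratio -0.23), 2.86 and 2.56 in the 2 h table, and 3.15 and 3.19 in the 24 h table.

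Camk1 also had the shortest transcript of the 10 genes, 1496 nt, and at 7 d the ratio of cocaine to saline went with transcript length over the whole table. Spearman's rho between length and log2 ratio was 0.473 across the 11143 loci with a known length at 7 d, against 0.157 at 2 h and 0.0855 at 24 h (across genes, which are not independent replicates). Loci in the shortest of 20 length groups had a median log2 ratio of -0.24 at 7 d and those in the longest 0.14. Loci with a length like that of Camk1 had a median of -0.11. With that median subtracted the log2 ratio of Camk1 at 7 d was -0.16, which is within the 1.2-fold limit. Among the 11143 loci with a known length, 7.92% were higher and 9.75% lower past the limit at 7 d before this subtraction, and 6.77% and 5.70% after it. For Camk1g, with 2468 nt, it left log2 ratios of 0.59 at 2 h, 0.43 at 24 h and 0.09 at 7 d. Among the 10 members alone, rho between length and the 7 d ratio was 0.176.

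**Figure D3:**
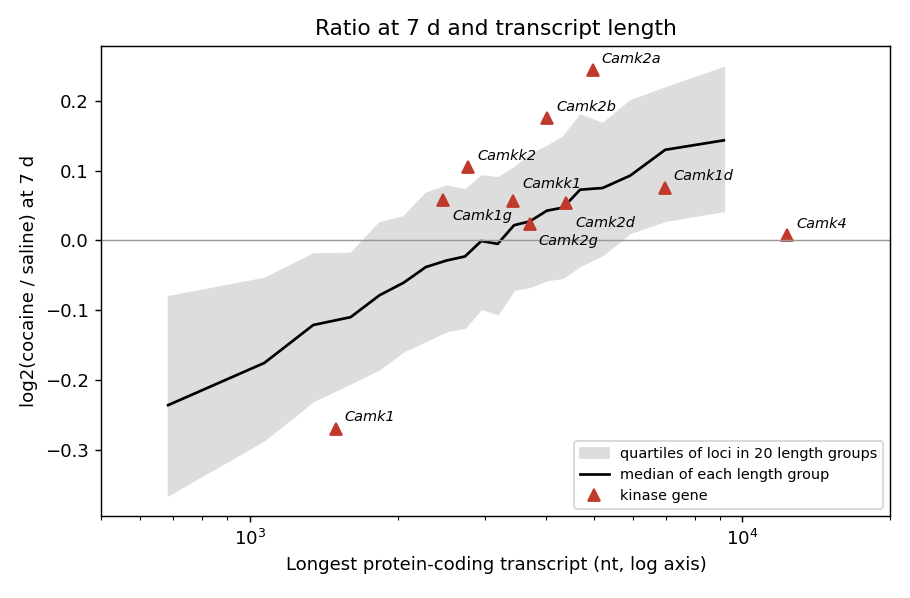
Log2 ratio of cocaine to saline at 7 d against the length of the longest protein-coding transcript (nt, log axis); the line joins the medians of 20 groups of loci of like length, the band spans their quartiles, and the triangles are the kinase genes. Camk1, at 1496 nt, lies below the band (-0.27), Camk2a, Camk2b and Camkk2 lie above it (0.24, 0.18 and 0.11), and Camk4 lies beyond its right end.

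To show the regulatory sequence of the 2 members that passed the limit, the RefSeq promoter windows (250 bases before to 50 after the start of the promoter entry, GRCm38.p6, 5′ to 3′ on the minus strand) were searched on both strands for the cAMP response element TGACGTCA bound by CREB, its short core TGACG (which the full element contains), the AP-1 element TGANTCA and the TATA box TATAAA. The window of Camk1g is chr1:193370233-193370532 and that of Camk1 chr6:113343873-113344172. The entry of Camk1g starts at 193370282, inside the RefSeq gene, which begins at 193370355 on this strand. That of Camk1 starts where its RefSeq gene does, at 113343922. Capitals mark a match.
Camk1g: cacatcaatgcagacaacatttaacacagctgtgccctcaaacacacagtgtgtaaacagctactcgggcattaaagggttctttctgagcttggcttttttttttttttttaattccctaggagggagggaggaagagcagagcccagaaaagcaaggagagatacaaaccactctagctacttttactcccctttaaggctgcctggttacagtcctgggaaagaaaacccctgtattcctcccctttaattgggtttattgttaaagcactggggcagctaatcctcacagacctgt
Camk1: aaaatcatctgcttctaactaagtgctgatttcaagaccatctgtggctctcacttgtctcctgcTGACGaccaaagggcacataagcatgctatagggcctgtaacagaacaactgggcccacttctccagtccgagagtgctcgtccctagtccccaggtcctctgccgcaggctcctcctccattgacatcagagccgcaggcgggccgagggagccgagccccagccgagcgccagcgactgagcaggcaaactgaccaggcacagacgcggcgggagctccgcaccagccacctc

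The Camk1 window held the short core TGACG once, 185 bases before the start, and the Camk1g window held none of these letters. Of 32851 promoter windows of this length, 20.8% held TGACG, 1.79% the full TGACGTCA, 7.81% the AP-1 element and 13.6% TATAAA. Windows were matched for 7 of the 10 members, and besides Camk1 only Camkk1 held a match, to TGACG. A match describes letters and not a bound site.

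The CaMKII subunits all stayed inside the 1.2-fold limit at every time point. The ratio of Camk2a was 1.12-fold at 2 h (log2 0.16), 0.924-fold at 24 h (-0.11) and 1.18-fold at 7 d (0.24). Its 3 cocaine levels lay within 968 to 1000 FPKM, and its 3 saline levels spread over 844 to 1048. The ratio below 1 at 24 h stood beside the highest saline level, and the ratio of 1.18 at 7 d beside the lowest. Camk2b had 139 FPKM (saline) and 137 FPKM (cocaine) in the 2 h table, 135 and 142 in the 24 h table, and 116 and 131 in the 7 d table (log2 ratios -0.02, 0.07 and 0.18). Here too the lowest of the 6 values was saline at 7 d.

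Camk2d was higher in cocaine at all 3 time points, with its largest ratio at 24 h. Saline stood at 21.0 FPKM and cocaine at 24.6 in the 24 h table (log2 ratio 0.23), at 21.4 and 22.3 in the 2 h table (0.06), and at 20.1 and 20.8 in the 7 d table (0.05). The 24 h cocaine value stood above the other 5, which ranged over 20.1 to 22.3 FPKM. Camk2d is the CaMKII subunit best known from heart. At 24 h, 2 of 3 astrocyte markers (Aqp4 and Gfap) and 1 of 3 oligodendrocyte markers (Mbp) were lower in cocaine past the limit, with summed levels of 102 and 86.3 FPKM and of 639 and 524 FPKM in saline and cocaine. The choroid plexus gene Ttr, the only 1 of 3 such markers kept, was lower too (1.801 and 1.0999 FPKM). Of those not kept, Kl had 0.466 and 0.489 FPKM (saline, cocaine) and Folr1 0.368 and 0.358. The part of all these cells in the Camk2d ratio was not tested. Camk2g varied least of all members, with 6 values from 56.7 to 61.5 FPKM and log2 ratios of -0.02, 0.04 and 0.02, and the deposited table gives its 7 d locus the status FAIL, by which Cuffdiff marks a locus it could not process fully. With the 4 subunits summed, CaMKII came to 1117 FPKM (saline) and 1219 FPKM (cocaine) in the 2 h table, 1264 and 1197 in the 24 h table, and 1037 and 1209 in the 7 d table.

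Camk4 encodes CaMKIV and had 29.0 FPKM (saline) and 27.5 FPKM (cocaine) in the 2 h table (log2 ratio -0.07), 25.2 and 27.3 in the 24 h table (0.12), and 25.6 and 25.8 in the 7 d table (0.01). Saline at 2 h was the highest of these values. Camk1d, a further CaMKI of neurons and granulocytes, ranged from 20.03 to 22.0 FPKM with log2 ratios of -0.0039, -0.10 and 0.08. Of the upstream kinases, Camkk1 had log2 ratios of 0.12, -0.03 and 0.06 and Camkk2 of -0.02, 0.09 and 0.11. In both, the largest ratio was below the spread of the 3 saline values, which was 0.15 for Camkk1 and 0.18 for Camkk2 on the log2 scale.

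The saline groups gave the only yardstick for how far pools of saline mice differ, although each comes from its own table and time. For 6 of the 10 kinase genes the largest cocaine-to-saline ratio was no larger than the range of the 3 saline values, and this was so for 55.7% of all 12760 genes. The exceptions were Camk1g (0.61 against a saline range of 0.54 on the log2 scale), Camk1 (0.27 against 0.17), Camk2d (0.23 against 0.09) and Camk1d (0.102 against 0.0978). Camk1g and Camk2d were higher in cocaine at all 3 time points, as were 19.1% of all genes, and Camk1 was lower at all 3, as were 14.4%.

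**Figure D4:**
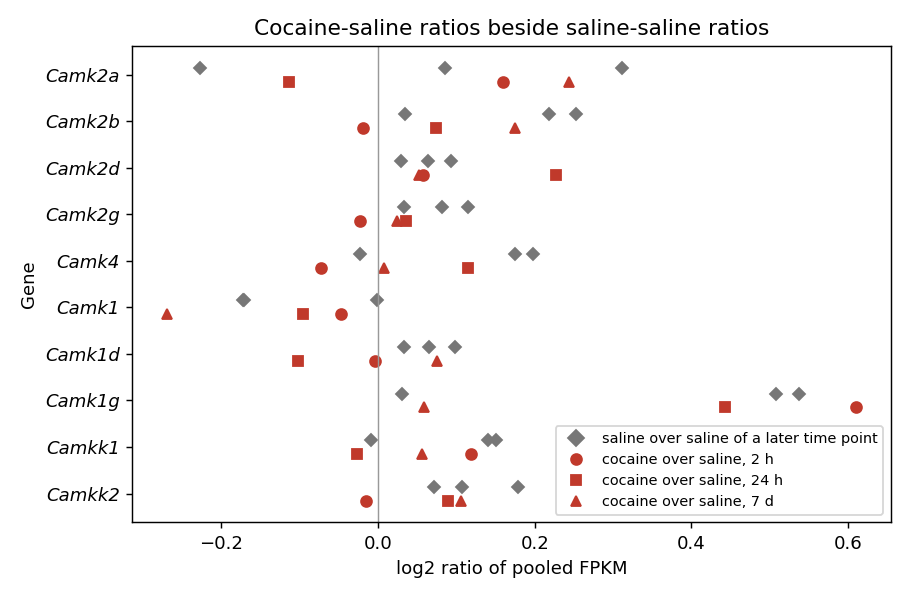
Log2 ratios of pooled FPKM for each kinase gene, with cocaine over saline at each time point in red and the 3 ratios between saline groups (the earlier over the later time point) as grey diamonds. For Camk1g the 2 h ratio (0.61) lies just beyond the largest saline-to-saline ratio (0.54). For Camk1 (-0.27), Camk2d (0.23) and Camk1d (-0.10) the largest ratio lies outside the grey points, whose sign depends on the order chosen.

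Genes whose 3 ratios were nearest to those of Camk1g were sought among 8250 genes with a mean of at least 5 FPKM at every time point, by Euclidean distance over the 3 log2 ratios. The 5 nearest were Nuak1, Ephb3, Sult1a1, Hrh1 and Socs2, at distances of 0.104 to 0.165. Nuak1, an AMPK-related kinase of axon branching, had 2 h levels of 13.7 and 21.4 FPKM (saline, cocaine) and log2 ratios of 0.65, 0.35 and 0.08 in the order of the time points. Ephb3, an ephrin receptor, had 0.68, 0.46 and 0.14, Sult1a1, a sulfotransferase, had 0.62, 0.42 and 0.19, and Hrh1, the histamine H1 receptor, had 0.48, 0.49 and 0.05. Socs2, a brake on cytokine signaling, differed in sign at 7 d with 0.63, 0.34 and -0.06. With 3 ratios per gene, such likeness describes values only.

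The other genes of calmodulin signaling were followed in 8 lists with 32 genes, all kept at every time point. At 2 h 1 of the 32 was higher in cocaine past the 1.2-fold limit and 0 were lower, at 24 h 0 passed it in either direction, and at 7 d 5 were higher and 1 was lower. In the order of the time points, the shares of all loci kept were 10.9%, 6.55% and 8.83% on the higher side and 7.89%, 5.84% and 12.3% on the lower side, and the lists were chosen with earlier results known. The medians of the 32 log2 ratios were 0.04, 0.03 and 0.02, beside 0.02, 0.01 and -0.01 over all loci kept. The gene past the limit at 2 h was Rcan1, an inhibitor of the calcium-dependent phosphatase calcineurin that is itself a target of calcineurin signaling, at 25.7 FPKM for saline and 32.9 FPKM for cocaine (log2 ratio 0.35). Its log2 ratio was 0.04 at 24 h and 0.00017 at 7 d. The calcineurin subunits Ppp3ca, Ppp3cb and Ppp3r1 (whose locus also carries the name Wdr92) had log2 ratios between -0.07 and 0.04 at all time points, and Ppp3cc, the catalytic subunit of lowest level, had -0.12, -0.06 and -0.20.

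Of the genes that encode calmodulin itself, Calm2 had 1746 FPKM (saline) and 1717 FPKM (cocaine) in the 2 h table, 1703 and 1708 in the 24 h table, and 1880 and 1638 in the 7 d table (log2 ratios -0.02, 0.0047 and -0.20). Calm3 had 911 and 947 FPKM, 909 and 939, and 824 and 926 in the same order (0.06, 0.05 and 0.17). Neither passed the limit, and at 7 d they lay on opposite sides of 0. With the median of loci of like transcript length subtracted, the 7 d log2 ratios of Calm2 and Calm3 were -0.02 and 0.21. Nrgn, which holds calmodulin at rest in dendritic spines, had log2 ratios of 0.03, 0.07 and -0.05. The CaMKII inhibitor Camk2n1 had 1651 FPKM (saline) and 1747 FPKM (cocaine) in the 2 h table and 1803 and 1639 in the 24 h table, but 850 and 863 in the 7 d table. Both groups of the 7 d table were thus far below the earlier tables, with a ratio within that table of 0.02 on the log2 scale.

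At 7 d the genes past the limit on the higher side were 2 of 4 substrates and partners of CaMKII, 2 of 7 genes of the CREB branch and 1 related kinase. Grin2b, the NMDA receptor subunit that docks CaMKII, had 10.2 and 14.2 FPKM in saline and cocaine (log2 ratio 0.48), and the scaffold Lrrc7 had 4.90 and 6.05 (0.30). Gria1 and Syn1 of the same list had 0.05 and 0.03. The CREB coactivators Crtc3 and Crtc1 had 0.45 and 0.27, while Creb1 itself had 0.10. The elongation factor kinase Eef2k, also switched on by calmodulin, was at 5.48 and 7.96 FPKM (0.54). The gene on the lower side was Pnck, the beta form of CaMKI, at 30.0 and 23.4 FPKM (-0.36), so that it lay on the same side as Camk1. With the median of loci of like transcript length subtracted, 3 genes of the lists were higher past the limit at 7 d and 0 were lower. Those still past it were Eef2k (0.45), Crtc3 (0.37) and Grin2b (0.35). Lrrc7 (0.17), Crtc1 (0.18) and Pnck (-0.25) were then within the limit, as was Camk1. The shares of loci with a known length were 6.77% and 5.70%. Pcp4 and Ppp3r1, whose loci each carry another gene name too, had no length matched and are not in this count.

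**Figure D5:**
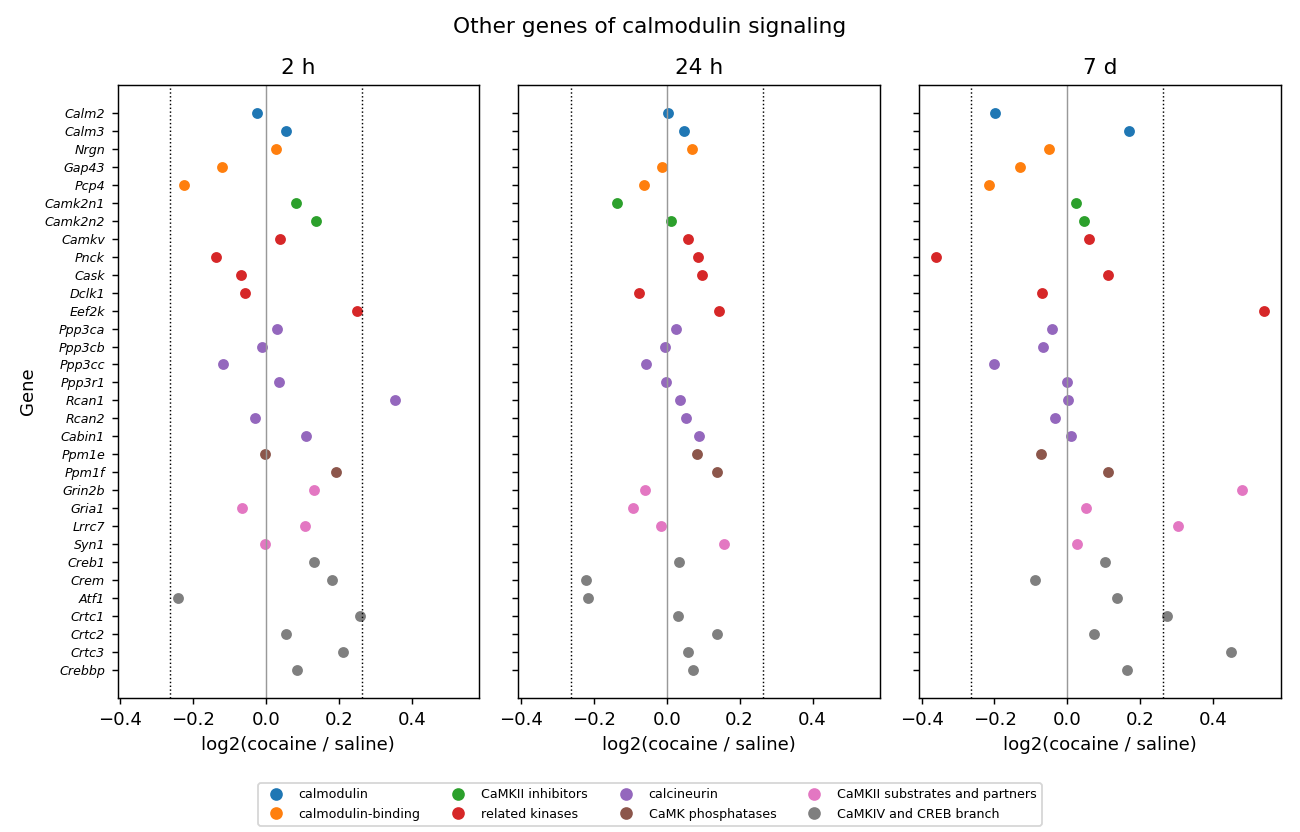
Log2 ratio of cocaine to saline for 32 other genes of calmodulin signaling at 2 h, 24 h and 7 d, coloured by list, with dotted lines at the 1.2-fold limit. Only Rcan1 passes the limit at 2 h and no gene does at 24 h, whereas 5 genes on the higher side, led by Eef2k (0.54), and Pnck on the lower side (-0.36) pass it at 7 d.

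The labelled tissue was checked against marker genes. The excitatory cortical markers Slc17a7, Tbr1 and Neurod6 were present in every group, with Slc17a7 between 466 and 532 FPKM, and their summed level differed between cocaine and saline by 0.02 to 0.03 on the log2 scale at the 3 time points. Of the striatal markers, Drd2 stayed between 0.146 and 0.234 FPKM and Adora2a between 0.805 and 1.35 FPKM, whereas Ppp1r1b was at 46.4 to 57.7 FPKM. Drd1 was not matched by name. At 7 d, 2 of 3 red blood cell genes (summed 266 and 308 FPKM) and 1 of 3 astrocyte genes (Gfap, summed 82.6 and 95.1) were higher past the limit. So were 1 of 2 endothelial genes (Flt1, summed 56.7 and 63.1) and the choroid plexus gene Ttr (0.284 and 6.54). Of the 2 striatal genes kept of 4, Adora2a was higher past the limit (0.805 and 1.35) and Ppp1r1b was within it (46.6 and 50.5). Drd2, not kept, was lower in cocaine at 0.234 and 0.208 FPKM. Neurod6 was lower past the limit (37.2 and 28.1). Of the 3 choroid plexus markers only 1, Ttr, was kept at 7 d. Of those not kept, Kl had 0.376 and 0.531 FPKM (saline, cocaine), and Folr1 was lower in cocaine at 0.668 and 0.290. The part of all these cells in the 7 d ratios of the kinases was not tested.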

How the data were processed

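The authors trimmed the paired reads, aligned them with TopHat2 2.0.12, kept uniquely mapped reads and ran Cufflinks 2.2.1 and Cuffdiff separately for each time point (versions per the submitters' processing notes). The deposited FPKM is 1 value per group, pooled over its 2 libraries. The methods name mm9 and the submitters' notes GRCm38: 99.8% of 28760 uniquely named loci of the 2 h table overlapped the RefSeq gene of that name in GRCm38, and 12.7% of those found overlapped it in NCBIM37. Starts were counted from 0 in the tables and are given from 1 here. The tables head saline with a C that could also stand for cocaine; the pairing used lay nearer to the study's saline and cocaine columns for 442 of 447 genes at 2 h, 13 of 13 at 24 h and 504 of 509 at 7 d. The columns with the authors' own fold changes, statistics, p-values and q-values were not used.

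Ratios were log2(cocaine/saline) without pseudocount, for loci with a mean of at least 1 FPKM and both values above 0. Where a gene name stood on several loci the longest was taken, ties going to the higher FPKM. Transcript lengths were those of the longest protein-coding GENCODE vM1 transcript of the symbol, found for 81.4%, 80.9% and 80.8% of loci at 2 h, 24 h and 7 d. Steps were tested on data with planted ratios. The text names all members, pathway genes past 1.2-fold with up to 4 others per list, and the 5 genes nearest to the member with the largest ratio. Ogg1 and the tie rule for loci were chosen after values were seen. Some genes of the pathway and marker lists are not reported here, and counts and sums are without them. Members and lists were chosen with earlier results of these data known. Python 3.11.15, pandas 2.3.3, numpy 2.4.6 and matplotlib 3.10.9 were used.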

Additional observations from a re-analysis of the deposited data

Results flagged for a closer look

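A second locus on chromosome 11 that also carries the name Camk2b, over the same stretch as the main one, stood in the 24 h table only, with a saline level of 0.842 FPKM and a cocaine level of 1.018 FPKM. A second locus named Camk2d on chromosome 3 had a saline level of 0.257 FPKM and a cocaine level of 0.3239 FPKM at 7 d, and it was listed at 0 in cocaine at both earlier time points. These loci lie outside the comparisons above and were picked out because cocaine exceeded saline there.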

How the results depend on the processing

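The 30 ratios of members were recomputed with a pseudocount of 1, centred on all loci, with the length trend subtracted, with no minimum FPKM, with a minimum of 5, with the locus of highest FPKM, and without loci marked FAIL, an alternative chosen after seeing the data that leaves 29 of them, without Camk2g at 7 d. The sign was the same throughout for 27 of the 30. The exceptions at 7 d were Camk1d (0.08, or -0.05 with the length trend subtracted), Camk4 (0.01, or -0.14) and Camk2g (0.02, or -0.0032). Camk1g stayed between 0.58 and 0.61 at 2 h and between 0.41 and 0.44 at 24 h. At 7 d Camk1 was no longer past 1.2-fold, so that 0 members were lower, when ratios were centred on all loci (-0.26) or the length trend was subtracted (-0.16). Of all loci, 11.5% were lower past the limit at 7 d when centred. With the length trend subtracted it was 5.70% of those with a known length. The same subtraction took Camk1d at 2 h from -0.0039 to -0.08. Loci past 1.2-fold on the higher and lower side without a minimum FPKM were, in the order of the time points, 17.8% and 18.9%, 15.9% and 17.0%, and 19.1% and 20.6%, with a minimum of 5 they were 7.35% and 3.38%, 3.89% and 2.48%, and 4.71% and 11.1%, and with the pseudocount 7.76% and 5.14%, 4.30% and 3.79%, and 5.22% and 9.42%. At a limit of 1.1-fold the higher members were 2 at 2 h (Camk1g and Camk2a), 2 at 24 h (Camk1g and Camk2d) and 2 at 7 d (Camk2a and Camk2b), against 24.7%, 17.5% and 21.7% of loci, and 1 was lower at 7 d (Camk1), against 26.0%. At 1.5-fold the higher members were 1 at 2 h and 0 at 24 h and 7 d, against 2.26%, 1.59% and 1.41%, and 0 were lower at 7 d, against 2.11%. No paired analysis was possible because the tables hold 1 pooled value per group, and leaving out a replicate was not possible for the same reason.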
